A study of Homo sapiens with 10 samples.

Results

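MX1, MX2, RSAD2, BST2, IFI44, IFI44L, IFI6, XAF1, SAMD9 and SAMD9L are 10 interferon-induced genes whose products act against viruses. They were taken by symbol from the protein-coding rows of the deposited tables, and all 10 were found among 19975 protein-coding genes and 60603 gene rows in all. RNA was measured by mRNA-seq in NB4 cells, a line from acute promyelocytic leukaemia, in 2 experiments. In the knockdown experiment, cells carried either pLKO.1 puro with no hairpin (EV) or 1 of 2 lentiviral hairpins against GSE1 (shA1 and shB2), and RNA was taken at 48 h. In the inhibitor experiment, cells received DMSO or the LSD1 inhibitor MC2580 at 2 µM, and RNA was taken at 24 h; the sample titles shorten the compound to MC280. Each of the 5 groups has 2 replicates, which gives 6 libraries in the knockdown experiment and 4 in the inhibitor experiment, all from 1 cell line.

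The measurement used here is the base mean, the authors' average of normalised counts over the libraries of an experiment, controls and treated cells together. In the knockdown experiment the heading of its column names shB2 alone. It was read as the mean over all libraries of that experiment, but whether the shA1 libraries entered it could not be checked. Being an average, a base mean has no replicate spread. It says where a gene stood in an experiment, not how far a hairpin or MC2580 moved it. The levels within EV, shA1, shB2, DMSO and MC2580 were not analysed here. Because GSE1 could not be followed library by library either, its pooled values are all that is given: a base mean of 2963 in the knockdown experiment and 4441 in the inhibitor experiment. KDM1A, which encodes LSD1, had base means of 7648 and 6285.

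Type I interferons bind the IFNAR1 and IFNAR2 receptor, whose kinases JAK1 and TYK2 start a signal that ends in a factor containing IRF9. This factor binds interferon-stimulated response elements in the promoters of genes such as the ones described here. Interferon gamma acts through a different site, the gamma-activated sequence, and myeloid cells can express many of the target genes at a basal level without added interferon.

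All 10 genes were expressed in both experiments. In the knockdown experiment their base means ran from 316 for RSAD2 to 8855 for BST2, and in the inhibitor experiment from 56.0 for RSAD2 to 11132 for IFI6. The median of the 10 genes was 2137 in the knockdown experiment and 1097 in the inhibitor experiment, against 1124 and 1043 over the 12354 protein-coding genes that reached 10 in both experiments. Together the 10 genes made up 0.0710% of all base means in the knockdown experiment and 0.0701% in the inhibitor experiment. These near-equal totals hid opposite members: without IFI6 the summed base mean was 22751 against 17737, a log2 ratio of 0.36.

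**Figure D1:**
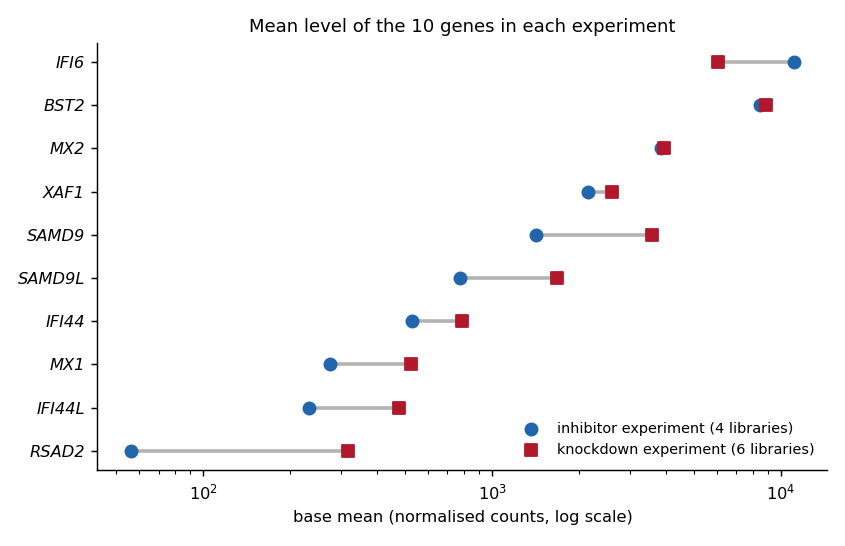
Base mean of each of the 10 genes (log axis, normalised counts) in the knockdown experiment (squares, read as the authors' mean of 6 libraries) and the inhibitor experiment (circles, authors' mean of 4 libraries), with a grey line joining the values of 1 gene. RSAD2 lies lowest in both, at 316 and 56.0, and IFI6 is the member with a markedly lower square than circle, at 6038 and 11132.

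To set the experiments side by side, the log2 ratio of the base means (each with 1 added) was taken for every gene and shifted so that the median protein-coding gene had 0. On this scale 8 of the 10 genes stood above 0 and 2 below it, where 50% of all genes stand above it by construction. That count includes BST2 at 0.00 and MX2 at -0.03, which lay too near 0 for their sign to be read. Past a log2 difference of 1, that is 2-fold, 3 genes were higher in the knockdown experiment (RSAD2, SAMD9 and SAMD9L), against 3.79% of the 12354 genes. None of the 10 was lower by that much, against 1.63% of all genes. The median difference of the 10 genes was 0.68, and the middle 90% of all genes ran from -0.74 to 0.90. No test was made of these differences, since neither experiment gives a spread, and the tables were normalised separately. Vector transduction, the hairpins, time of harvest and the compound all differ between the experiments and cannot be told apart. In bulk RNA, fewer cells of a type and less RNA per cell cannot be told apart either.

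**Figure D2:**
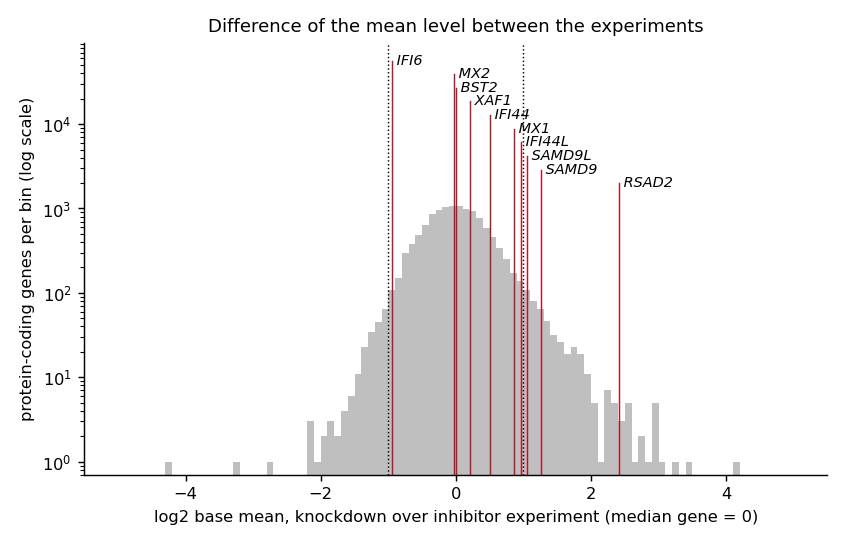
Number of protein-coding genes (grey bars, log axis) by their log2 difference in base mean between the knockdown and inhibitor experiments, with the median gene at 0, a line for each of the 10 genes and dotted lines at a 2-fold difference. IFI6 lies at the left edge of the main mass at -0.95, MX2 and BST2 sit at its centre, and RSAD2 stands apart on the right at 2.41.

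RSAD2 encodes viperin, a radical SAM enzyme that makes a chain-terminating nucleotide from CTP. The gene lies on the forward strand at chr2:6865557-6898239 (hg38, GENCODE 44), and its canonical transcript has 6 exons. RSAD2 had a base mean of 316 in the knockdown experiment and 56.0 in the inhibitor experiment. The centred log2 difference of 2.41, or 5.31-fold, was the highest of the 10, and only 20 of the 12354 genes had a higher one. RSAD2 was also the lowest of the 10 by base mean in both experiments, so that its inhibitor value is the smallest number in the set. Its exons share 351 bases, 6.20% of the RSAD2 exon length, with CMPK2 on the opposite strand. The library kit did not keep strand, so reads in the shared bases cannot be told apart. CMPK2, a mitochondrial nucleotide kinase that is itself interferon-induced, had base means of 2053 and 1023, a centred log2 difference of 0.94.

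Promoters were read from RefSeq (GRCh38.p14) as windows of 300 bases, 250 before and 50 after each start, and 9 of the 10 genes matched, with 14 windows. MX2 had no window. For 12 of the 14 windows, the bases just after the start occur in a GENCODE transcript of the gene. They do not for the first window of IFI44 and the second of MX1. The windows were searched on both strands for GAAANNGAA (TTCNNTTTC on the other strand), the core of the interferon-stimulated response element, which 8.11% of all 35116 windows hold. They were also searched for TTCNNNGAA, the core of the gamma-activated sequence and its own reverse complement, which 7.66% of all windows hold. The stretches printed with each gene let the promoters of the members be compared, as the members differed between the experiments by unlike amounts. Whether these letters bear on those differences was not tested. RSAD2 has a match in each of its 2 windows, given here with the matched letters in capitals, the first at chr2:6865798-6865822 and the second at chr2:6877625-6877649, both on the forward strand.
RSAD2 start 1: cgggaaacGAAAGCGAAgcgttgcg
RSAD2 start 2: tttcaactTTCAGTTTCacatgtgg

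SAMD9 and SAMD9L encode large related proteins that restrict poxviruses and slow the growth of myeloid cells. They are neighbours on the reverse strand of chromosome 7, SAMD9 at chr7:93099513-93118023 and SAMD9L at chr7:93130056-93148385, with 12032 bases between them. SAMD9 had base means of 3576 and 1421 in the knockdown and inhibitor experiments, and SAMD9L had 1680 and 774. Both were thus higher in the knockdown experiment by similar amounts, with centred log2 differences of 1.26 (2.40-fold) and 1.05 (2.07-fold). Of all genes, 243 had a higher difference than SAMD9 and 408 a higher one than SAMD9L, which lay just past the 2-fold line. Per kb of annotated exon, SAMD9 was 2.48-fold above SAMD9L in the knockdown experiment and 2.14-fold above it in the inhibitor experiment. The coding sequences of the pair share 71.9% of 4711 aligned bases. Over all annotated transcripts, untranslated parts included, only 2 runs of 31 bases, which may overlap each other, occur in both genes. SAMD9 has 1 match to the interferon core, in the stretch at chr7:93118099-93118123 on the reverse strand, and SAMD9L has none in its window.
SAMD9: tgagaaatGAAACTGAAaccaaacc

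MX1 and MX2 encode dynamin-like GTPases. The MX1 protein works in the cytoplasm against influenza and other RNA viruses, and the MX2 protein acts at the nuclear envelope and restricts HIV-1. The genes lie in tandem on the forward strand of chromosome 21, MX2 at chr21:41361999-41409393 and MX1 at chr21:41420020-41470071, 10626 bases apart. MX1 had base means of 525 and 274 in the knockdown and inhibitor experiments, a centred log2 difference of 0.87, while MX2 had 3944 and 3847, a difference of -0.03. MX1 was thus among the higher genes, with 659 of the 12354 above it, and MX2 stood at the centre of the distribution. MX2 was the more abundant of the pair in both experiments, per kb of annotated exon 9.28-fold above MX1 in the knockdown experiment and 17.3-fold in the inhibitor experiment. This ratio rests on exon lengths of 17984 bases for MX1 and 14562 for MX2, far longer than their canonical transcripts of 2776 and 3408 bases. Their coding sequences share 70.1% of 1977 aligned bases. Over all annotated transcripts, untranslated parts included, 38 runs of 31 bases, which may overlap each other, occur in both genes.

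MX1 has 3 promoter windows. The first holds 2 overlapping matches to the interferon core, 12 to 26 bases into the transcript at chr21:41420569-41420583, and the third holds 1 at chr21:41431847-41431871 that overlaps a gamma-activated core. The overlapping pair is short enough to be given whole, and in the third window only the interferon core is in capitals.
MX1 start 1: GAAACCGAAACTGAA
MX1 start 3: cactctgtTTCTCTTTCcgtgaata

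MX1 exons overlap those of TMPRSS2 on the opposite strand over 562 bases, and TMPRSS2, a surface protease of epithelia, had base means of 0.317 and 1.28. They also share 436 bases with ENSG00000228318, a long non-coding RNA with base means of 1.33 and 0. Reads in these shared bases cannot be told apart by strand.

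IFI44 and IFI44L are neighbouring interferon-induced genes on the forward strand of chromosome 1, IFI44L at chr1:78619902-78646145 and IFI44 at chr1:78649796-78664078, with 3650 bases between them. Their protein products are related, and the roles of both are less settled than those of the MX proteins. IFI44L had base means of 477 and 233 in the knockdown and inhibitor experiments, and IFI44 had 784 and 529. The centred log2 differences were 0.96 (1.95-fold) for IFI44L, just inside the 2-fold line, and 0.50 (1.41-fold) for IFI44. IFI44 was the more abundant per kb of annotated exon, 9.37-fold above IFI44L in the knockdown experiment and 12.9-fold in the inhibitor experiment. Most of that ratio is length, for the exons of IFI44L cover 11610 bases and those of IFI44 cover 2038: the log2 ratio of the base means themselves was 0.72 and 1.18. The coding sequences share 64.4% of 1303 aligned bases. Over all annotated transcripts, no run of 31 bases is common to both genes.

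The promoter of IFI44L holds the interferon core at 2 places, inside a repeat of 85 bases whose copies start 91 bases apart, in the stretch at chr1:78620276-78620391. IFI44 holds 1 match, on the other strand, at chr1:78649764-78649788, which falls in the windows of both of its starts.
IFI44L: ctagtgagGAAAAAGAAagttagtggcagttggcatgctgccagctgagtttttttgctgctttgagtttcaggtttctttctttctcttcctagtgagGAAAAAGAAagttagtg
IFI44: cactgagtTTCAGTTTCctttctct

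IFI6 encodes a small membrane protein of the endoplasmic reticulum and mitochondria that blocks flavivirus replication and protects cells from apoptosis. The gene lies on the reverse strand at chr1:27666064-27672212. Of the 2 members below 0 it was the one far from it, with base means of 6038 in the knockdown experiment and 11132 in the inhibitor experiment. The centred log2 difference was -0.95, 1.93-fold lower, and 12101 of the 12354 genes had a higher one. IFI6 held the highest base mean of the 10 in the inhibitor experiment and the next to highest, after BST2, in the knockdown experiment. Of its runs of 31 bases, 19.3% also occur in other genes, nearly all of them in LINC02574, which overlaps it on the same strand over 216 exon bases. LINC02574 had base means of 1.71 and 1.04.

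The 1 window of IFI6 has 3 interferon cores between 156 and 85 bases before the start, in the stretch at chr1:27672269-27672356 on the reverse strand. The first and the second lie in copies of a repeat of 29 bases that start 41 bases apart. A match is a description of letters and was not tested as a binding site.
IFI6: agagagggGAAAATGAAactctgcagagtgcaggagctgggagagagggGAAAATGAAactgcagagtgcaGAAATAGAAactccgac

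BST2 encodes tetherin, which holds budding enveloped viruses at the cell surface. It lies on the reverse strand at chr19:17402939-17405630, with 5 exons in the canonical transcript. Its base means were 8855 and 8456 in the knockdown and inhibitor experiments, a centred log2 difference of 0.00, the smallest of the 10. Per kb of annotated exon it ranked 138 of 17298 expressed protein-coding genes in the knockdown experiment and 191 of 17050 in the inhibitor experiment. BST2 shares no run of 31 bases with any other gene. The window holds 2 overlapping interferon cores, from 130 to 116 bases before the start in the stretch at chr19:17405738-17405768 on the reverse strand, and 2 gamma-activated cores, 1 of which overlaps the first of them.
BST2: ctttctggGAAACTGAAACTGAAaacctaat

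XAF1 encodes a protein that counters the apoptosis inhibitor XIAP. It lies on the forward strand at chr17:6755447-6775647. Its base means of 2594 and 2146 gave a centred log2 difference of 0.21, with 4046 of the 12354 genes above it. Its exons share 2535 bases, 38.3% of the annotated exon length, with the opposite-strand transcript PRAL, which had base means of 68.5 and 62.7. Neither of the 2 XAF1 windows holds either core. That says only that these letters are not in these windows.

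In all, 7 of the 9 genes with a window hold the interferon core, MX1, RSAD2, BST2, IFI44, IFI44L, IFI6 and SAMD9. Counted by window, 10 of the 14 hold it, against 8.11% of all 35116 windows. Both IFI44 windows hold the same match, so these windows are not independent. The count by gene has no matching background share here, as genes differ in their number of windows. Only MX1 and BST2 hold the gamma-activated core, in 2 of the 14 windows, against 7.66% of all windows. Of the 3 genes past the 2-fold line, RSAD2 and SAMD9 hold the interferon core and SAMD9L does not. Among the other genes with a window, MX1, BST2, IFI44, IFI44L and IFI6 hold it and XAF1 does not. A link between the core and the differences was not tested.

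**Figure D3:**
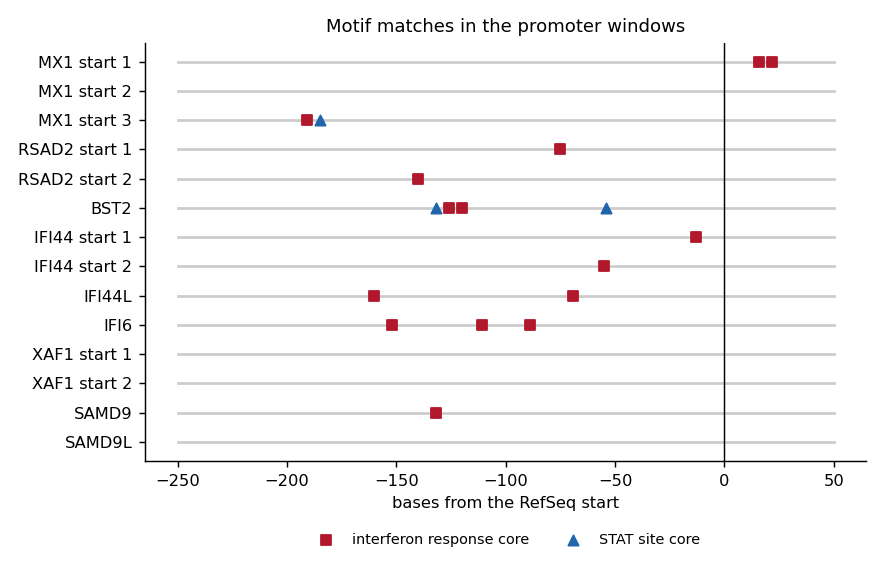
Position of matches to the interferon response core (squares) and the gamma-activated (STAT site) core (triangles) in the 14 RefSeq promoter windows of 9 of the 10 genes, in bases from the start (vertical line), with each grey line a window from 250 bases before to 50 after it. Most matches lie before the start, those of MX1 start 1 lie after it, and XAF1, SAMD9L and MX1 start 2 have none.

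Ordered by base mean per kb of annotated exon, BST2 (8043) and IFI6 (6451) led the knockdown experiment. SAMD9 (522), XAF1 (392), IFI44 (385), MX2 (271) and SAMD9L (210) followed, and RSAD2 (55.8), IFI44L (41.1) and MX1 (29.2) were lowest. The highest was 276-fold above the lowest. In the inhibitor experiment the range was wider, 1202-fold, from IFI6 (11893) to RSAD2 (9.89), and SAMD9 (207) came after XAF1 (324), MX2 (264) and IFI44 (260). BST2 and IFI6 thus formed a high pair in both experiments, and RSAD2, IFI44L and MX1 a low trio. Without values per library, neighbours in the order could not be separated by their spread. The order within the middle group and within the trio also turned on the length used. With the mean length of coding transcripts, XAF1 rose to 1684 per kb and MX2 to 1668 in the knockdown experiment, both above SAMD9 at 612. The trio stayed lowest under every length, but with this one RSAD2 was the lowest of it, at 88.8. IFI44L at 259 then lay close below SAMD9L at 288, so the gap above the trio also depended on length.

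**Figure D4:**
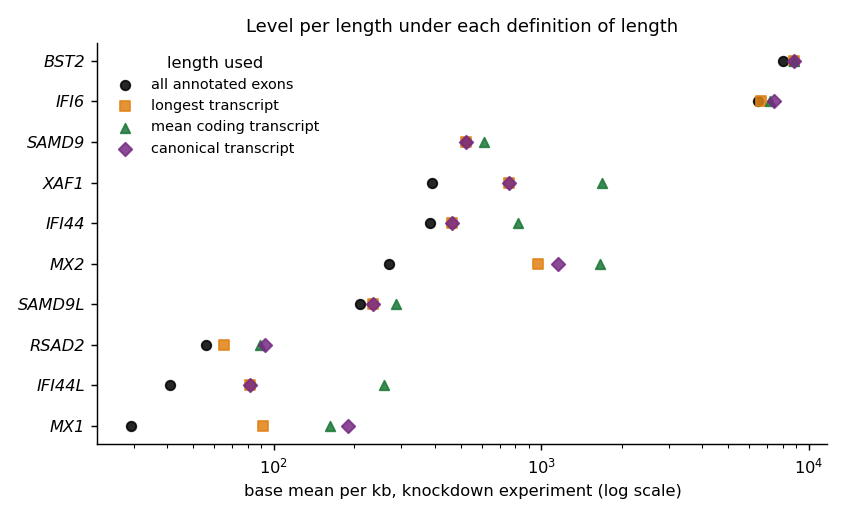
Base mean per kb (log axis) of the 10 genes in the knockdown experiment, with the marker showing which length the base mean was divided by. BST2 and IFI6 lie highest under every length, while MX2, XAF1, IFI44L and MX1, which have long annotated exons, shift to the right under the other lengths.

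The 10 genes were then set beside other genes of the pathway. Of the 4 interferon genes IFNA1, IFNB1, IFNG and IFNL1, none reached a base mean of 10 in either experiment, and the highest was IFNA1 at 3.75 in the inhibitor experiment. All 4 receptor chains were expressed, with a median difference of 0.36, from -0.30 for IFNGR2 to 0.72 for IFNAR2, and none was past 2-fold. Nor was any of the 8 signal transducers, whose median was 0.28, with JAK1 highest at 0.99 and IRF9 lowest at -0.21. The 3 feedback inhibitors were all above 0, from 0.56 for SOCS1 to 0.81 for USP18, the protease that removes ISG15 and damps receptor signalling.

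Among 29 other interferon effectors, 25 stood above 0, with a median of 0.81. The 25 include ISG15 at 0.01, too near 0 for its sign to be read. By more than 2-fold, 9 were higher, against 3.79% of the 12354 genes, and 1 was lower, against 1.63%. IFIT2, which binds foreign RNA and was the highest, had base means of 3553 and 444 and a difference of 2.93, beyond that of RSAD2. IFI27, a mitochondrial protein of the same family as IFI6, was the lowest, with base means of 156 and 555 and a difference of -1.89. IFI6 and IFI27 were thus the lowest genes of their respective lists, and the family membership of the pair was picked out after the values were seen. Small membrane proteins of another family, IFITM1, IFITM2 and IFITM3, which block viral entry, had differences of -0.39, -0.67 and -0.62. With IFI27 they were the only ones of the 29 below 0, and they too were picked out after the values were seen.

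**Figure D5:**
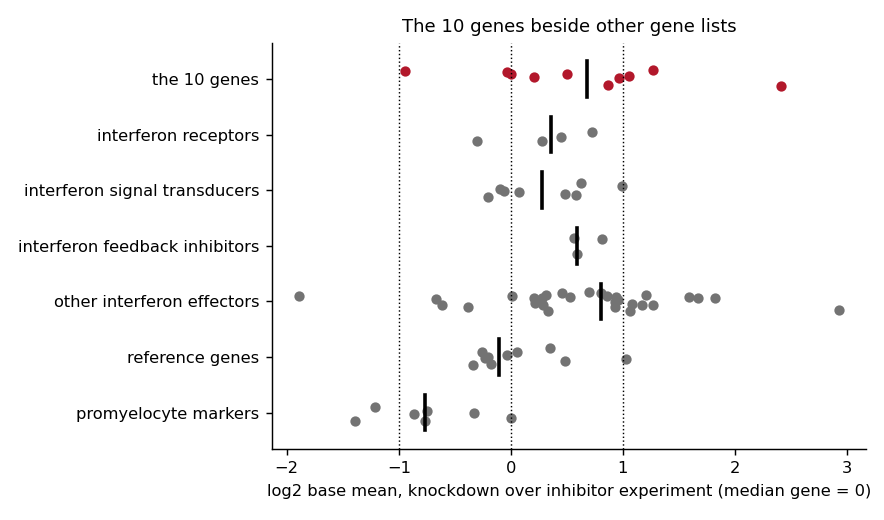
Centred log2 difference in base mean between the knockdown and inhibitor experiments for each gene (points, vertical scatter for display only) of 7 lists, with a black bar at each list's median and dotted lines at 0 and at a 2-fold difference. The 10 genes spread from -0.95 to 2.41 around a median of 0.68, close to the 0.81 of the other interferon effectors, while the promyelocyte markers have a median of -0.77.

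Genes that mark the cells also differed between the experiments. Of 8 promyelocyte markers, 7 reached the minimum, with a median difference of -0.77, and MPO, the granule peroxidase that defines the lineage, had base means of 506765 and 824818. CD33, a myeloid surface protein, was highest at 0.00, AZU1 (-1.39, the lowest) and CEBPE (-1.21) were lower in the knockdown experiment by more than 2-fold, and ELANE was at 1.10 and 3.87. Their part in the values of the 10 genes was not tested. Of 4 monocyte markers at the minimum, none was past 2-fold, with a median of 0.36, from -0.19 for CSF1R to 0.75 for CD14. The 3 erythroid markers were at 0 in the inhibitor experiment and summed to 12.7 in the knockdown experiment. The T cell, B cell, NK cell, megakaryocyte, epithelial and fibroblast lists each had 1 or 2 genes at the minimum. Of these only the fibroblast marker PDGFRB was past 2-fold, higher in the knockdown experiment at 1.40, with base means of 52.6 and 18.3, and COL1A1 was at 0.15. The NK cell markers NKG7 and NCAM1 had differences of 0.67 and 0.48, NKG7 with base means of 2346 and 1407. CD3D of the T cell list was at -0.07, CD79A of the B cell list at -0.01, ITGA2B of the megakaryocyte list at 0.20 and EPCAM of the epithelial list at 0.03. The 10 reference genes had a median of -0.10, with POLR2A past 2-fold at 1.03 and HPRT1 lowest at -0.33.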

How the data were processed

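The authors prepared libraries with an unstranded TruSeq kit, aligned the reads with STAR (hg38), estimated gene counts with RSEM and compared groups with DESeq2; the submitters' processing notes give STAR 2.7, FastQC 0.11.5 and bcl2fastq 2. Base means are the signal values that the authors deposited, counts divided by size factors and averaged over the libraries of an experiment. Whether those of the knockdown experiment include the shA1 libraries could not be checked, as their column heading names shB2 alone. Base means give no depth or spread per library. The other 15 columns hold the authors' fold changes, standard errors, statistics and p-values for shA1, shB2 and MC2580, and were not used.

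Log2 ratios of base means (pseudocount 1) were centred on the median of the 12354 protein-coding genes reaching 10 in both tables, a shift of 0.07. With no spread, no test was made, and the comparison of groups that had been planned on counts was not run. Lengths were unions of GENCODE 44 exons, which 99.6% of protein-coding genes matched; coding sequences were aligned with Biopython 1.88. The genes named are the 10 members, GSE1, KDM1A, genes whose exons overlap a member, and the highest and lowest of each list, while others were named after their values were seen and some list genes are not reported here. The members and lists were chosen with earlier results of these data known. Python 3.11.15 and pandas 2.3.3 were used.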

Additional observations from a re-analysis of the deposited data

How the results depend on the processing

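The number of genes past 2-fold between the experiments was 3 higher and 0 lower, where 3.79% of all genes were higher. It became 4 and 0 without centring (4.44% of all genes higher), with scaling by the sum of base means (4.74%), with centring on reference genes (4.94%) and with all genes as background (3.74%). IFI44L was the addition. With a minimum base mean of 100 it became 2 (2.14%), where RSAD2 drops out by construction. It stayed at 3 with pseudocounts of 0.1 (3.91%) and 5 (3.38%) and with no minimum (5.51%). The share of all genes lower by that much ran from 0.83% to 3.81% over the settings. No gene's difference moved by 1.5-fold under any of these 8 settings, but these settings could hardly have moved one so far. Centring, minimum and background change only a shift common to all genes. The pseudocounts are small beside base means whose lowest is 56.0. MX2 and BST2, at -0.03 and 0.00, are too near 0 for their sign to be read. The number of genes above 0 accordingly ranged from 7 to 9. Levels per kb moved with the length used. The log2 ratio of IFI44 over IFI44L went from 3.23 and 3.69 (knockdown and inhibitor) to 2.51 and 2.98 with the longest transcript, to 1.67 and 2.13 with the mean coding transcript and to 2.51 and 2.98 with the canonical transcript. That of MX1 over MX2 went from -3.21 and -4.11 to -2.61 and -3.51 with the canonical transcript, a length chosen after seeing the data. With 1 more A in the interferon core, 7 genes still held it. No paired analysis was possible because the tables hold no value per library, and for the same reason the count models, the filter on counts and the fits without 1 replicate were not run. The main limit is that base means mix control and treated libraries, so that neither counting error nor replicate error can be attached to any value.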
